A study of Mus musculus with 30 samples.

Results

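The genes described here are 9 that the epithelium of the choroid plexus is known for: Ttr, Kl, Sostdc1, Cldn2, Folr1, Clic6, Kcnj13, F5 and Otx2. They were chosen by symbol, as every probe set that the array annotation pairs with 1 of these symbols alone, which gave 17 of the 45037 probe sets in the data and 9 of 18193 named genes. Ttr has 4 probe sets, Kl, Sostdc1, Cldn2, Clic6 and F5 have 2 each, and Folr1, Kcnj13 and Otx2 have 1 each. Expression had been measured in liver, kidney and brain of 10 mice on 30 Affymetrix arrays, 1 per tissue and mouse. All mice were males at day 22, the age of weaning, and all were Avy/a, so that each carried the viable yellow allele of agouti over the nonagouti allele. They came from a sibling-mated colony kept heterozygous for Avy, a mutation that had arisen in C3H/HeJ mice. Their coats had been scored in 5 classes, from yellow over slightly mottled, mottled and heavily mottled to the brown pseudoagouti. Each class held 2 mice, labelled 1 and 2, and no class lacked the Avy allele.

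The choroid plexus is a frond of epithelium over leaky capillaries that hangs in the ventricles of the brain and secretes the cerebrospinal fluid. Its cells make transthyretin for the fluid, carry folate from the blood into it, and are joined by tight junctions that let water and ions through. Otx2 is a homeodomain transcription factor that the tissue needs to form and keeps in the adult. Several of the genes also serve other epithelia: Kl and Cldn2 are known from the kidney tubule, and Ttr and F5 are secreted by hepatocytes.

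The values are the authors' MAS5 signals, which are linear brightness per probe set, and were compared as log2(signal + 16). The 30 arrays had median signals of 105.2 to 205.4 and had each been scaled to a trimmed mean of 500. Levels of different probe sets are not comparable on arrays, so each was set only against itself, except in the summed signals of gene lists. Those sums add raw signals, so the brightest probe sets weigh most in them. Tests were run on probe sets whose mean log2 value in at least 1 tissue reached that of a signal of 242, the median over probe sets of the highest tissue mean. This kept 22519 probe sets, among them 15 of the 17, with 8 of the 9 genes. Otx2 and the Kl probe set 1451892_at (brain signals of 3.7 to 40.1) stayed below it, the former with values of 3.2 to 269.9 in brain. Each gene was represented by the probe set with the highest brain mean.

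The labelled tissues were checked against marker lists. All 7 measured neuron genes, among them Snap25, Syt1 and Rbfox3, were higher in brain than in kidney and liver. Of 28 other genes of choroid plexus epithelium on the array, 22 passed the filter, 11 of them with a brain mean at the threshold. Of the 22, 3 were higher and 17 lower in brain than in kidney, where 21.9% and 20.7% of all tested probe sets were; genes that passed through kidney or liver alone were favoured to be lower in brain. The share of choroid plexus in each brain sample is not known, and in such bulk RNA, fewer epithelial cells and less RNA per cell cannot be told apart.

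RefSeq promoter windows on GRCm38.p6 were at hand for Kl, Kcnj13, F5, Cldn2 and Otx2, that is for 5 members, and the first 4 are shown because their brain levels moved together, in the case of Cldn2 at its probe set 1417231_at and not at the other. Each run is the 250 bases before the annotated start, on the gene's own strand. Capitals mark the letters TATAAA, the TATA box, searched on either strand. TAATCC, the core that OTX proteins bind, and GTAAACA, a forkhead core, were searched likewise and share no position with a TATAAA match here. The windows lie at chr5:150952357-150952606 (plus strand) for Kl, chr1:87394730-87394979 (minus strand) for Kcnj13, chr1:164151585-164151834 (plus strand) for F5 and chrX:139800558-139800807 (plus strand) for Cldn2.
Kl: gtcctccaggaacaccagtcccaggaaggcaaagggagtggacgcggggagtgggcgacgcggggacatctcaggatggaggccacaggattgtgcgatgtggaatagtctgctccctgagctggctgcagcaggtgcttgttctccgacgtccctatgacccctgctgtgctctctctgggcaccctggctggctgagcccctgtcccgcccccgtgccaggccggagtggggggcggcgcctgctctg
Kcnj13: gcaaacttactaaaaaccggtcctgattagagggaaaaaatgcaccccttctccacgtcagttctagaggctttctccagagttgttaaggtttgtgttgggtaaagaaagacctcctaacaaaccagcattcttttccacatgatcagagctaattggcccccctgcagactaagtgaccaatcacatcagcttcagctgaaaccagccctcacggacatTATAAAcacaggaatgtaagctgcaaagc
F5: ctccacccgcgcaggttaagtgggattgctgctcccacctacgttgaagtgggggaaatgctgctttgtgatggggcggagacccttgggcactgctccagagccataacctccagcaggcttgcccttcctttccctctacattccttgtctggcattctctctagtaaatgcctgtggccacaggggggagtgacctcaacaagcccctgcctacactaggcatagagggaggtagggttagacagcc
Cldn2: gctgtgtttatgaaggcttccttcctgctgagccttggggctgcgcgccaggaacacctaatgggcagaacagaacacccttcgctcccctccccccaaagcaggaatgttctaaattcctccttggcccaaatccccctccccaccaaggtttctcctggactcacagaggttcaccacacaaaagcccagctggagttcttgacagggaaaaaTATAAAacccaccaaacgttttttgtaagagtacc

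The TATAAA letters began 29 bases before the start in Kcnj13 and 35 bases before it in Cldn2. They were not in the windows of Kl and F5, whose GC content was 66.8% and 57.2%, against 45.2% in Kcnj13 and 52.0% in Cldn2. Of 32851 promoter windows of this length in the table, 12.37% held TATAAA on either strand, 6.25% held TAATCC and 3.17% held GTAAACA. Neither of the last motifs was in these 4 windows. In Otx2, which has 4 windows, GGATTA, the reverse complement of TAATCC, stood in 1 of them, at chr14:48665110-48665359 (minus strand). Another Otx2 window, at chr14:48667645-48667894 (minus strand), held TATAAA 192 bases before the start. A match of this kind is a description of the letters and shows no binding.

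Across the 10 brains the genes rose and fell together. The mean of the 9 genes was highest in yellow 2, although Ttr at 1454608_x_at and Folr1 were highest in yellow 1 and Otx2 in slightly mottled 1. It was lowest in 4 brains, those of both mottled and both pseudoagouti mice. In these 4, 15, 12, 15 and 15 of the 17 probe sets lay below their own brain mean (mottled 1, mottled 2, pseudoagouti 1 and pseudoagouti 2). In the other 6 brains, 1 to 5 did. The 4 were picked from the values of these same genes, so their separation in single genes below is a description and no test. The share of all probe sets that separate the same 4 brains was not taken. The mean of the 9 genes, each standardised over the 10 arrays, was -0.77, -0.95, -1.05 and -0.76 in those 4 brains, from 0.19 to 0.60 in 5 others, and 1.30 in yellow 2. The summed signal of the neuron genes did not show this order, with 59345 in pseudoagouti 2 at the lowest and 90386 in pseudoagouti 1 at the highest. Single neuron genes differed: their r with the mean of the 9 ran from -0.42 to 0.50, and Slc17a7 read from 894 to 7668. Pseudoagouti 1 also had the highest summed pituitary signal, 3231 against a median of 635, from Gh, growth hormone, at 2092, where the median brain had 41.0. Its part in the results was not tested.

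**Figure D1:**
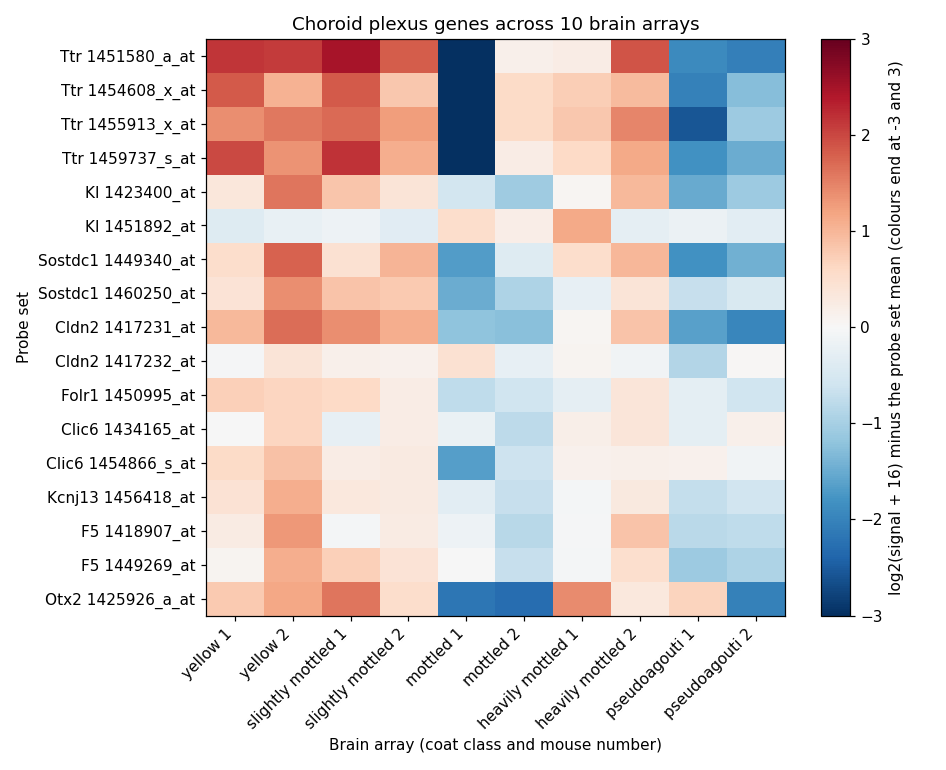
Deviation of log2(signal + 16) from the mean of each of the 17 probe sets (rows) in the 10 brain arrays (columns, by coat class and mouse number), with colours ending at -3 and 3. The mottled and pseudoagouti columns are mostly blue, with 12 to 15 of 17 probe sets below their mean, and all 4 Ttr probe sets are lowest in mottled 1.

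Among the secreted proteins, Ttr encodes transthyretin, the carrier of thyroid hormone and retinol-binding protein. At probe set 1454608_x_at its brain signal was 31779 and 18263 in the yellow mice, 31547 and 15586 in the slightly mottled, 373 and 13281 in the mottled, 14660 and 17194 in the heavily mottled, and 2175.0 and 3638 in the pseudoagouti mice (numbers 1 and 2). Mottled 1 stood far below all others, and both pseudoagouti brains lay below the remaining 7. The other Ttr probe sets fell in the same arrays, to 18.1, 166 and 169 in mottled 1, and correlated with each other and with 1454608_x_at in brain at r of 0.98 to 0.99 (6 pairs). Mottled 2 was the fourth lowest at each Ttr probe set, next to heavily mottled 1, with 13281 against 14660 at 1454608_x_at. In 5 brains (both yellow, both slightly mottled, and heavily mottled 2) the signal of 1454608_x_at was 85.4% to 89.0% of the highest on the array, close to the top of the scale. The SD of Ttr over the 10 brains was 2.01 to 2.92 on the log2 scale, ranks 1, 3, 4 and 6 of 22519 tested probe sets, whose median SD was 0.30.

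Sostdc1 encodes a secreted antagonist of BMP and Wnt signals. Its probe set 1449340_at read 313.0 and 761 in yellow, 294 and 446 in slightly mottled, 55.2 and 158 in mottled, 312 and 433 in heavily mottled, and 48.3 and 67.0 in pseudoagouti brains. Here both mottled and both pseudoagouti brains were below all 6 others, and the SD of 1.26 ranked 31 among the tested probe sets. F5 encodes coagulation factor V. At 1418907_at it read 116 and 255 in yellow, 90.5 and 115 in slightly mottled, 84.1 and 46.3 in mottled, 91.6 and 186 in heavily mottled, and 47.6 and 49.3 in pseudoagouti brains. The same 4 brains were again the lowest.

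Of the membrane receptors, Kl, the coreceptor of FGF23 in the control of phosphate, read 211 and 532 in yellow, 303 and 219 in slightly mottled, 106.0 and 69.5 in mottled, 172 and 338 in heavily mottled, and 46.9 and 69.0 in pseudoagouti brains at 1423400_at. The 4 low brains did not overlap the other 6, and the SD of 1.02 ranked 138. Its probe set 1451892_at stayed at 3.7 to 40.1 and did not follow the first (r = -0.19). Folr1, the folate receptor alpha that carries folate across the epithelium, read 268.0 and 254.0 in yellow, 248 and 186 in slightly mottled, 86.0 and 99.7 in mottled, 127 and 207 in heavily mottled, and 126 and 98.3 in pseudoagouti brains. Its lowest 4 were the same brains, with pseudoagouti 1 next to heavily mottled 1.

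Kcnj13, the inward rectifier potassium channel Kir7.1, read 361 and 573 in yellow, 331 and 320.2 in slightly mottled, 207 and 157 in mottled, 249.9 and 323 in heavily mottled, and 153 and 170.4 in pseudoagouti brains. The 4 low brains were below the other 6 in this gene too. Clic6, an intracellular chloride channel protein, varied less: 1434165_at ran from 263 in mottled 2 to 735 in yellow 2 with an SD of 0.40, and pseudoagouti 2 at 513 lay above 5 of the other brains. Its second probe set, 1454866_s_at, was lowest in mottled 1, at 97.3, and highest in yellow 2, at 644.0.

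Cldn2, the claudin that makes tight junctions permeable to cations and water, was measured by 2 probe sets that differed. At 1417231_at it read 167 and 278 in yellow, 227 and 181 in slightly mottled, 23.9 and 23.1 in mottled, 80.9 and 151 in heavily mottled, and 13.9 and 8.0 in pseudoagouti brains, with the 4 low brains apart and an SD of 1.38, rank 22. At 1417232_at it read from 76.3 to 214, with mottled 1 the highest, and the SD was 0.37. The r between them was 0.44 in brain (permutation p = 0.212, adjusted p = 0.304 over 33 such relations), but 0.89 in kidney and 0.81 in liver, where the signals were higher. The rule of the highest brain mean chose 1417232_at, and the highest mean over all arrays chose 1417231_at, so both are given below.

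Otx2 read 145 and 191 in yellow, 269.9 and 119 in slightly mottled, 4.6 and 3.2 in mottled, 232 and 100.1 in heavily mottled, and 132 and 6.9 in pseudoagouti brains. Only mottled 1, mottled 2 and pseudoagouti 2 were near the levels of kidney (1.1 to 8.9) and liver (2.1 to 15.4). In pseudoagouti 1, which was low for Ttr and Sostdc1, Otx2 was not low.

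The 36 pairs of these genes were correlated over the 10 brain arrays, with Pearson's r and Spearman's rho, two-sided permutation p-values from 100000 resamples and Benjamini-Hochberg adjustment over the 36. In 35 pairs r was above 0, the median r was 0.63, and 15 pairs had an adjusted p under 0.05 (16 by Spearman's rho). The members and tests were chosen with earlier results of these data known, so the p-values are not independent support. Over all 48703515 pairs of 9870 other genes with a brain mean at the threshold, 50.3% of r were above 0, the median was 0.0040 and the 95th percentile 0.69. Of the 9 members only 3 (Ttr, Clic6 and Kcnj13) had a brain mean at the threshold, so the sets are unlike in level. Kl and Kcnj13 had the highest value, r = 0.96 and rho = 0.90 (permutation p = 3.00e-05, adjusted p = 0.00108). Kl and F5 followed with r = 0.93 and rho = 0.88 (permutation p = 1.30e-04, adjusted p = 0.00156), and Kcnj13 and F5 with r = 0.93 and rho = 0.89 (permutation p = 9.00e-05, adjusted p = 0.00156). Kl and Sostdc1 reached r = 0.90 and rho = 0.87 (permutation p = 4.70e-04, adjusted p = 0.00423).

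Without the 2 arrays farthest from the median of Kl (yellow 2 and pseudoagouti 1), these r were 0.94 for Kl and Kcnj13, 0.89 for Kl and F5 and 0.82 for Kl and Sostdc1. For Kcnj13 and F5, without the same 2, it was 0.85. Over all 36 pairs the median r without the 2 farthest arrays was 0.69, with 34 above 0. The labels do not say what the mouse numbers 1 and 2 mark, so r was also taken within each number (5 mice each, as values only). The median r was 0.63 within number 1, with 33 of 36 above 0, and 0.81 within number 2, with 36 of 36 above 0. Leaving out yellow 2, the highest brain, lowered the count of pairs under the threshold from 15 to 8, with a median r of 0.60.

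**Figure D2:**
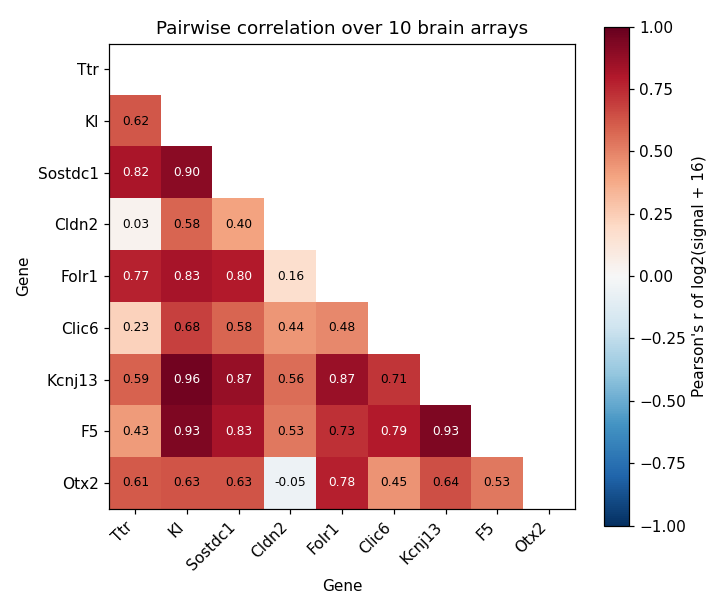
Pearson's r of log2(signal + 16) over 10 brain arrays for each of the 36 pairs of genes, with 1 probe set per gene. Values reach 0.96 for Kl and Kcnj13, and the Cldn2 row and column, from 1417232_at, holds the lowest values.

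Folr1 took part in 6 of its 8 pairs under the threshold, Sostdc1, Kcnj13 and F5 in 5 each, Kl in 4, Ttr and Clic6 in 2 each and Otx2 in 1. Ttr passed with Sostdc1 (r = 0.82, rho = 0.75, permutation p = 0.00286, adjusted p = 0.0135) and with Folr1 (r = 0.77, rho = 0.95, permutation p = 0.00300, adjusted p = 0.0135). Its r with Kl was 0.62 (rho = 0.77, permutation p = 0.0525, adjusted p = 0.0966) and rose to 0.78 without mottled 1. Otx2 passed with Folr1 alone (r = 0.78, rho = 0.70, permutation p = 0.00830, adjusted p = 0.0249).

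Cldn2 passed with no partner at 1417232_at, where r ran from -0.05 with Otx2 to 0.58 with Kl. At 1417231_at it correlated with Kl at r = 0.95 (rho = 0.92, permutation p = 1.10e-04), with Kcnj13 at r = 0.94 (rho = 0.90, permutation p = 8.00e-05) and with Folr1 at r = 0.91 (rho = 0.82, permutation p = 0.00156). With the probe sets of the highest mean over all arrays, 23 of the 36 pairs were under the threshold and the median r was 0.76. Against the mean of the other 8 genes, the probe set 1417231_at had r = 0.96 and 1417232_at r = 0.39. The corresponding values were 0.97 for Kl, 0.97 for Kcnj13, 0.91 for Sostdc1, 0.89 for F5, 0.84 for Folr1, 0.66 for Clic6, 0.64 for Otx2 and 0.61 for Ttr.

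Outside the 9 genes, those whose brain levels were most like their mean were ranked by r over the 10 arrays, among 9870 genes with a brain mean of at least 242. The highest was Ecrg4, a secreted peptide precursor known from choroid plexus, with r = 0.94 and signals from 57.8 through a median of 509 to 1685.0, an SD of 1.60. Next came Phrf1 (r = 0.93), Arhgef18 (0.90), Cab39l (0.88), Oaz2 (0.88), Limk2 (0.86), Stard3nl (0.85), St3gal4 (0.85), Atat1 (0.84), Lbp (0.83), Acss2 (0.83) and Ankrd46 (0.83). The list of 20 ended with Gm19935 (0.83), Nob1 (0.82), Cenpt (0.81), Ksr1 (0.81), Itprid2 (0.81), Prelp (0.80), Olfml2b (0.80) and Ttyh3 (0.80). Most of them varied far less than Ecrg4: Phrf1 ran from 412 to 644.0, with an SD of 0.20, and Ankrd46 from 2937 to 3493, with an SD of 0.08. The lowest r belonged to Tmtc1 (-0.87), Fry (-0.86), Prpf4b (-0.84), Zfp950 (-0.84) and Tia1 (-0.84). These r are descriptions of 10 arrays, and 9870 genes were compared.

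Many other genes known from choroid plexus epithelium followed the 9, on a list chosen with earlier results of these data known. Over the 22 of 28 that passed the filter the median r with the mean of the 9 was 0.69, against 0.02 over all 9870 genes, whose 99th percentile was 0.69, and 9 were above 0.7. All 9870 had a brain mean at the threshold, but only 11 of the 22 had, so the sets are unlike in level. Calml4, a calmodulin-like protein, had r = 0.95 and signals of 28.9 to 499.6. Col8a1, a collagen chain, had r = 0.91, the water channel Aqp1 0.89, Cab39l 0.88, and Lbp, which binds bacterial lipopolysaccharide, 0.83. Kcne2, a potassium channel subunit that did not pass the filter, had r = 0.93 and ran from 4.2 to 257.6. Igf2, the growth factor shared with meninges and vessels, had r = 0.66, and Igfbp2, which binds it, 0.68. The lowest values among its tested genes were those of Spint2 (0.43), Trpv4 (0.40), Rdh5 (0.37), Slc12a7 (0.19), Perp (0.03), Slc29a4 (-0.03) and Cldn3 (-0.08). The summed signal of the list was 7346 in mottled 2 at the lowest, 9612 at the median and 14299 in yellow 2 at the highest, and its log2 had r = 0.91 with the mean of the 9.

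A list of 15 tested genes of fluid secretion and transport had a median r of 0.02. The chloride-bicarbonate exchanger Slc4a2 had the highest value, 0.78, while the cotransporter Slc12a2 had 0.53, the sodium pump subunits Atp1b2 and Atp1b1 0.48 and 0.02, and Slc4a10, the bicarbonate transporter, -0.14. Of the genes of ependyma, the ciliated lining of the ventricles, 2 of 14 passed the filter. The summed signal of the 14 ran from 1370 in mottled 1 to 3542 in heavily mottled 1 and had r = 0.61 with the mean of the 9. Foxj1, the master regulator of motile cilia, ran from 87.2 to 223.9 with r = 0.59. For meninges and fibroblasts the r of the summed log2 signal was 0.06, for pigment epithelium -0.02, for neurons 0.07, for brain endothelium -0.33 and for pituitary -0.34. Blood genes (4 on the array, 2 of which passed the filter) had 0.46. Their sum was highest in yellow 2 (1362) and lowest in slightly mottled 1 (544). The part of the ependyma and blood genes in the covariation was not tested.

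Genes that act with single members had lower median r with the mean of the 9 than the other choroid plexus genes, whose median was 0.69. Around Kl, the median r of 11 tested genes of klotho and phosphate signalling was 0.21, with Fgfr3 at 0.58, Fgfr1, the receptor that Kl converts for FGF23, at 0.22, and Vdr, the vitamin D receptor, at 0.28. Around Ttr, the 10 tested genes of retinol and thyroid hormone handling had a median of 0.16, with Thra, a thyroid hormone receptor, at 0.55, Rbp4, the plasma retinol carrier, at 0.31 and Slco1c1, the thyroxine transporter, at 0.01. Around Sostdc1, the 12 tested genes of BMP and Wnt signalling had a median of 0.18, with Bmp4 at 0.60, Bmp7 at 0.52 and the BMP target Id1 at 0.39. For the lists around Kl, Ttr and Sostdc1, the r of the summed log2 signal with the mean of the 9 was 0.41, 0.48 and -0.34.

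**Figure D3:**
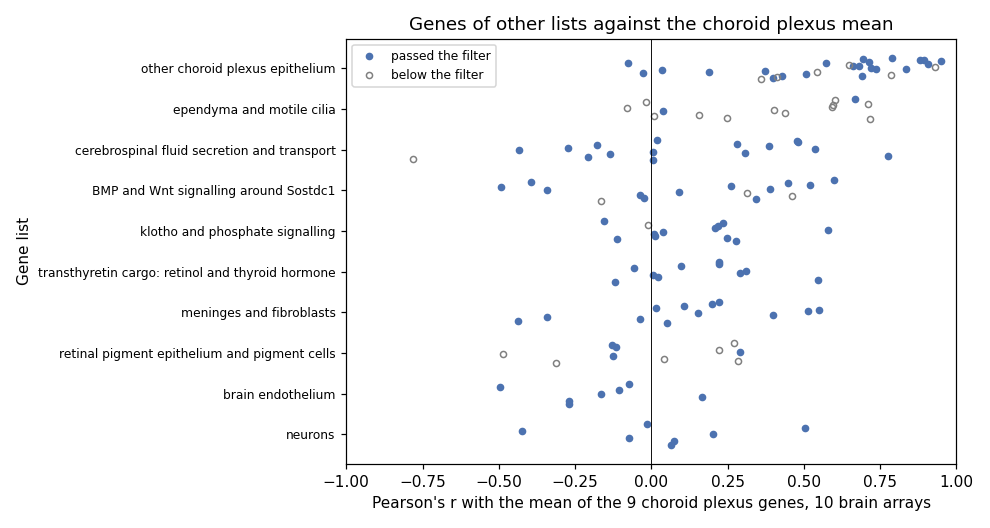
Pearson's r of each gene of 10 lists with the mean of the 9 choroid plexus genes over 10 brain arrays; filled points passed the filter and open points did not. The choroid plexus list has a median of 0.69 among filled points, and the secretion and transport list one of 0.02.

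The tissues were compared within mice by limma with mouse as a block. A probe set was called when its Benjamini-Hochberg adjusted p was under 0.05 and its log2 difference at least 1. Between brain and kidney 6 of the 15 tested probe sets were called lower in brain, where 20.7% of all tested probe sets were, and 0 were called higher, against 21.9%. At an unadjusted p under 0.05, 7 of the 15 differed, against 80.46% of all tested. The 6 belonged to Kl, Sostdc1, Cldn2 and Folr1, and none of them had a brain mean at the threshold. They entered the test through kidney or liver, so that a lower level in brain was favoured by the filter. Between brain and liver 5 were higher in brain (background 30.2%) and 8 lower (20.4%). Between kidney and liver 8 were higher in kidney (18.6%) and 6 lower (9.85%). The filter favoured some of these directions too. Kl (1423400_at), Sostdc1 and Folr1 reached the threshold in kidney alone, F5 in liver alone, and Cldn2 in both but not in brain. These counts against the background are therefore no evidence of enrichment. The median difference of the 15 was -0.21 for brain minus kidney, -1.71 for brain minus liver and 1.03 for kidney minus liver, against -0.03, 0.15 and 0.13 over all tested.

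Kl, Cldn2, Folr1 and Sostdc1 were kidney genes on these arrays. Kl read 6851 to 11056 in kidney (median 8063), 46.9 to 532 in brain and 4.7 to 101.2 in liver, and differed by -5.54 ± 0.29 between brain and kidney (log2 difference ± SE, brain minus kidney, n = 10 mice, limma adjusted p = 3.15e-15). Folr1 read 3332 to 8462 in kidney (median 5777), 86.0 to 268.0 in brain and 45 to 136 in liver, with a difference of -4.97 ± 0.19 (adjusted p = 3.53e-18). Sostdc1 at 1449340_at read 3491 to 5624 in kidney (median 5247), against 4.8 to 66.8 in liver, and differed by -4.45 ± 0.33 between brain and kidney (adjusted p = 3.14e-12). The ranges of kidney and brain did not overlap in these 3 genes, which entered the test through kidney alone. How many of all tested probe sets separate likewise was not counted. By the limma adjusted p alone, 17897 of 22519 differed between these tissues.

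Cldn2 was high in kidney and also in liver. At 1417231_at it read 5618 to 11283 in kidney (median 7927), 1624 to 4075 in liver (median 3009) and 8.0 to 278 in brain, where kidney minus liver was 1.59 ± 0.32 (adjusted p = 8.86e-05) and brain minus liver -4.91 ± 0.32 (adjusted p = 1.64e-13). At 1417232_at the same differences were 1.26 ± 0.24 (adjusted p = 5.73e-05) and -2.39 ± 0.24 (adjusted p = 1.41e-09). Its kidney range lay above its liver range at 1417231_at and overlapped it at 1417232_at.

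F5 and Ttr were highest in liver. F5 at 1418907_at read 5462 to 12355 in liver (median 8261), 46.3 to 255 in brain and 75.4 to 198 in kidney. Brain minus liver was -6.21 ± 0.20 (adjusted p = 1.07e-19), while brain minus kidney was -0.38 ± 0.20 (adjusted p = 0.0921). Ttr at 1454608_x_at read 23254 to 35452 in liver (median 29636), 7841 to 13823 in kidney (median 9896) and 373 to 31779 in brain. Brain minus liver was -1.71 ± 0.45 (adjusted p = 0.00111) and kidney minus liver -1.50 ± 0.45 (adjusted p = 0.00456), the latter no longer called after quantile normalisation over all arrays (-1.05, adjusted p = 0.0543). Brain minus kidney was -0.21 ± 0.45 (adjusted p = 0.670). In brain the range of Ttr enclosed that of kidney. At the Ttr probe set 1451580_a_at brain minus kidney was 0.36 ± 0.64 (adjusted p = 0.612), and it was called higher in brain when mottled 1 was left out (1.11 ± 0.39, adjusted p = 0.0138).

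Clic6, Kcnj13 and Otx2 were not called lower in brain than in either other tissue. Clic6 at 1434165_at read 263 to 735 in brain (median 486), 288 to 497 in kidney and 50.0 to 307 in liver, with brain minus liver at 1.41 ± 0.18 (adjusted p = 5.45e-08) and brain minus kidney at 0.38 ± 0.18 (adjusted p = 0.0495, under the minimum difference). Kcnj13 read 153 to 573 in brain, 141 to 419 in kidney and 93.7 to 287 in liver, overlapping throughout, with brain minus kidney at -0.02 ± 0.19 (adjusted p = 0.941) and brain minus liver at 0.76 ± 0.19 (adjusted p = 8.57e-04, under the minimum difference). Otx2 was tested only when the filter was dropped, and was then higher in brain than in kidney by 2.20 ± 0.35 (limma adjusted p = 4.30e-06).

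**Figure D4:**
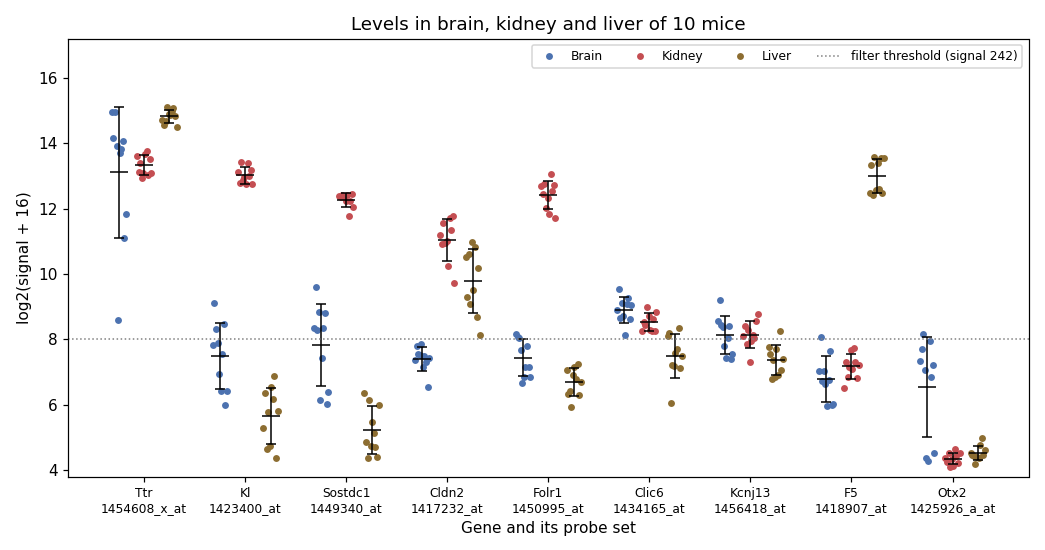
log2(signal + 16) of 1 probe set per gene in brain, kidney and liver of 10 mice; points are mice, bars the mean and SD, and the dotted line the filter threshold. Levels can be compared within a gene only: Kl, Sostdc1, Folr1 and Cldn2 stand highest in kidney, F5 in liver, and brain has the widest spread of Ttr.

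Of the 17 probe sets, 15 had their highest SD between mice in brain, as had 29.7% of all tested probe sets. The exceptions were Cldn2 at 1417232_at, with 0.37 in brain, 0.65 in kidney and 0.97 in liver, and Clic6 at 1434165_at, with 0.40, 0.27 and 0.67. The median over all tested probe sets was 0.30 in brain, 0.31 in kidney and 0.32 in liver. For Ttr the SD was 0.28 to 0.43 in kidney and 0.21 to 0.23 in liver, where its signals were close to the highest on each array, so that a low SD there does not show little variation. Kl at 1423400_at had 0.26 in kidney and 0.87 in liver, at low liver signals, and Sostdc1 had 0.73 and 0.84 in liver. For Cldn2 at 1417231_at it was 1.38 in brain, 0.31 in kidney and 0.42 in liver. Levels were set against each other between tissues of the same mice wherever the probe set standing for a gene had a mean log2 value at the threshold in both, which gave 6 relations over 10 mice. None had an adjusted p under 0.05. Ttr in brain against liver had r = 0.0007 (rho = -0.15, permutation p = 0.998, adjusted p = 0.998) and against kidney r = 0.24 (rho = 0.05, permutation p = 0.534, adjusted p = 0.998). Clic6 in brain and kidney had r = 0.40 (rho = 0.37, permutation p = 0.255, adjusted p = 0.766), and Kcnj13 r = -0.04 (rho = -0.15, permutation p = 0.923, adjusted p = 0.998). Cldn2 in kidney and liver had r = 0.64 (rho = 0.53, permutation p = 0.0454, adjusted p = 0.272), but r = -0.56 within number 1, 0.34 within number 2, and 0.35 without the 2 farthest mice. Added after the values were seen, Kl and Folr1 in brain and kidney had r = 0.12 and 0.43, and F5 in brain and liver 0.21 (permutation p = 0.729, 0.206 and 0.544; adjusted p = 0.729, 0.618 and 0.729 over 3).

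Within kidney, Kl at 1423400_at, Folr1 and Cldn2 followed each other over the 10 mice. The other Kl probe set, 1451892_at, read 75.1 to 259.8 in kidney and did not follow them. Its r there was 0.04 with Folr1, 0.30 with Cldn2 at 1417231_at and 0.40 with Kl at 1423400_at. Kl at 1423400_at and Cldn2 at 1417231_at had r = 0.91, with Cldn2 at rank 32 among the 9720 genes compared with Kl. Folr1 and Cldn2 at 1417231_at had r = 0.90, rank 91 for Cldn2 among those compared with Folr1, and Kl and Folr1 had 0.87, rank 186 for Folr1 among those compared with Kl. Within numbers 1 and 2 (5 mice each, values only) these r were 0.89 and 0.57, 0.83 and 0.78, and 0.87 and 0.66. Clic6 at 1434165_at ran against Ttr at 1454608_x_at, with r = -0.91 (-0.94 and -0.83 within the numbers) and rank 9718 of 9720 for Ttr. The other Clic6 probe set, 1454866_s_at, had r = -0.28 with that Ttr probe set, rank 6193. With the other Ttr probe sets, Clic6 at 1434165_at had r = -0.90 (1459737_s_at), -0.54 (1451580_a_at) and -0.26 (1455913_x_at). The r between Ttr probe sets in kidney ran from -0.0008 to 0.85, so this relation depends on the probe set. The genes nearest to Kl in kidney were Trappc5 (r = 0.97), Lrp2, the endocytic receptor megalin of the proximal tubule (0.96), and Dpm1 (0.96). Those nearest to Folr1 were Mrpl37, Mrps26 and Slc25a11 (0.98, 0.97 and 0.97), to Cldn2 at 1417232_at Mdm2, Slc25a13 and Usp15 (0.97, 0.96 and 0.95), to Ttr Pcbd2, Apoo and Ndufb2 (0.96, 0.95 and 0.92), to Sostdc1 Chtop, Gabpb1 and Lnx1 (0.94, 0.93 and 0.90), to Clic6 Prr3, Sufu and Kmt2d (0.93, 0.93 and 0.92), and to Kcnj13 Dtnb, Cpne8 and Spire2 (0.93, 0.93 and 0.93). Sostdc1 at 1449340_at did not follow Kl (r = -0.21) or Folr1 (-0.16) there, although it did in brain. Its other probe set, 1460250_at, had r = 0.73 with Kl and 0.75 with Folr1 in kidney. Within numbers 1 and 2 these were 0.41 and 0.21, and 0.43 and 0.66. The r between the probe sets of Sostdc1 was 0.37 in kidney, so the contrast with brain depends on the probe set. Kcnj13 and Kl, the closest pair in brain, had r = -0.22 in kidney. The kidney array of pseudoagouti 2 had the lowest kidney signals of Folr1 and of both Cldn2 probe sets. Its ratio of 3' to 5' Gapdh signal, a control for RNA quality, was 1.015, against 0.759 to 0.826 on the other kidney arrays. The part of this array in these r was not tested.

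In liver the genes nearest to Ttr were those of abundant plasma proteins: Serpina1b, an antitrypsin (r = 0.99), Fga, the fibrinogen alpha chain (0.99), and Apoe (0.99). Signals of all 3 and of Ttr were close to the highest on each array, 66.6% to 72.6% of it for Ttr at 1454608_x_at. Next to Cldn2 at 1417232_at stood Rpp30, Habp2 and Mettl21a (0.99, 0.98 and 0.98) and next to F5 Kif1c, Sh3bgrl and Serinc1 (0.97 each). Cldn2 at 1417232_at and F5 at 1418907_at ran against each other with r = -0.92, rank 9017 of 9084 for F5 (-0.62 for F5 and Cldn2 at 1417231_at), and both differed between the mouse numbers, as given below. Within numbers 1 and 2 that r was 0.58 and -0.65. The r of genes nearest to a member are over the 10 arrays of both numbers and carry no test.

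The study compared coat classes, so the slope of each probe set was fitted per step from yellow (0) to pseudoagouti (4). In brain all 15 tested probe sets had a slope below 0, as had 50.0% of all tested, and the median was -0.37, against -3.67e-05 over all. None was called by limma after adjustment (adjusted p = 0.9999 for each), and the background was 0 called, or 0%, in brain. At an unadjusted p under 0.05 were 8 of the 15, against 326 of 22519 (1.45%). Because the 15 follow the same brains, their slopes are 1 pattern of 10 arrays and not 15 findings. The smallest p, which do not mark the steepest slopes, were those of Cldn2 at 1417231_at, -0.70 ± 0.18 log2 per step (SE, n = 10, limma p = 0.00163), Kcnj13, -0.30 ± 0.08 (p = 0.00330), F5 at 1449269_at, -0.35 ± 0.11 (p = 0.00677), Kl, -0.46 ± 0.15 (p = 0.00851), and Sostdc1 at 1449340_at, -0.56 ± 0.18 (p = 0.00944). Ttr at 1454608_x_at had a slope of -0.67 ± 0.33 and was not among the 8. The levels did not step evenly along the scale. Heavily mottled brains were above mottled brains without overlap (2 against 2) at most probe sets, among them those of Ttr, Sostdc1, Folr1, Clic6 and Kcnj13. The ranges overlapped at Kl 1451892_at, Cldn2 1417232_at and F5 1449269_at. The share of all tested probe sets that separate these classes likewise was not counted.

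Within number 1 all 15 slopes were below 0 with a median of -0.33, and within number 2 all 15 with a median of -0.41 (5 mice each, values only). In kidney 9 of 15 slopes were below 0 with a median of -0.01, in liver 7 with a median of 0.01, and none was called by limma or had an unadjusted p under 0.05, where the background called was 0.00444% in kidney and 0% in liver. For the mean of the 3 tissues 0 of 15 were called (background 0.00444%), and Cldn2 at 1417231_at and Sostdc1 at 1449340_at had unadjusted p = 0.00229 and 0.00523. A test of whether the slope differed between tissues, added after the data were seen, called 0 of the 15 by limma's moderated F-test. Cldn2 at 1417231_at had unadjusted p = 8.05e-04 and adjusted p = 0.9997 there.

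The series sought transcripts that vary strongly between mice and little between the tissues of a mouse. The moderated F-test of limma for a mouse effect over the 3 tissues called 0 of 15 probe sets, against 6.8% of all tested (94 probe sets with the number as a block, none of them a member). The smallest p, and the only 1 under 0.05, was 0.0322 (adjusted p = 0.155) for Cldn2 at 1417232_at. The ratio R, the mean SD across mice within tissues over the mean SD across tissues within mice, was 0.12 to 0.84 for the 17 probe sets, and its highest value was that of Kcnj13. None reached the 1.5 named in the series description, which 149 tested probe sets exceeded. For the 4 Ttr probe sets R was 0.54 to 0.69.

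The mice labelled 1 and 2 in each class were compared because the labels do not say what the number marks. In brain 0 of the 15 probe sets were called by limma (background 1.97%), and none had an unadjusted p under 0.05, against 4953 of all tested, although all 15 differences were above 0 (median 0.32, number 2 minus number 1, against -0.02 over all tested). In kidney 0 were called (7.33%), and 6 had an unadjusted p under 0.05, against 28.85% of all tested. Without mottled 1, where 19.1% of all tested were called, 6 were called lower in number 2 there: both Cldn2 probe sets, Kl, Folr1, Ttr at 1459737_s_at and Sostdc1 at 1460250_at. Without heavily mottled 2, 2 were called, where 4.2% of all were.

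In liver 3 of 15 were called (9.85%). F5 at 1418907_at read 5728, 5462, 6047, 6217 and 5738 in the livers of number 1 (yellow to pseudoagouti) and 10305, 12355, 10818, 11997 and 12032 in those of number 2, without overlap. The difference was 0.97 ± 0.09 log2 (SE, 5 against 5 mice, limma adjusted p = 4.19e-04). At 1449269_at the same gene read 5804 to 7113 against 6221 to 6974, overlapping, with a difference of 0.10 ± 0.09 (adjusted p = 0.513). The probe sets of F5 thus differed in the same samples.

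Cldn2 at 1417232_at read 1447, 1542, 2005, 1790.2 and 1143 in number 1 and 611, 525, 711, 399 and 268 in number 2, a difference of -1.68 ± 0.24 (limma adjusted p = 0.00269). At 1417231_at the ranges of 2834 to 4075 and 1624 to 3323 overlapped, with -0.50 ± 0.19 (adjusted p = 0.116). The difference at 1417232_at varied between tissues, with a value 1.76 above that of liver in brain and 0.87 above it in kidney (moderated F-test of limma, adjusted p = 0.0140, where 4.94% of all tested were called). Kl was called in liver with 1.24 ± 0.35 (adjusted p = 0.0421), at signals of 4.7 to 55.8 against 38.9 to 101.2, and was lost when any of 7 single mice was left out (adjusted p up to 0.0990).

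**Figure D5:**
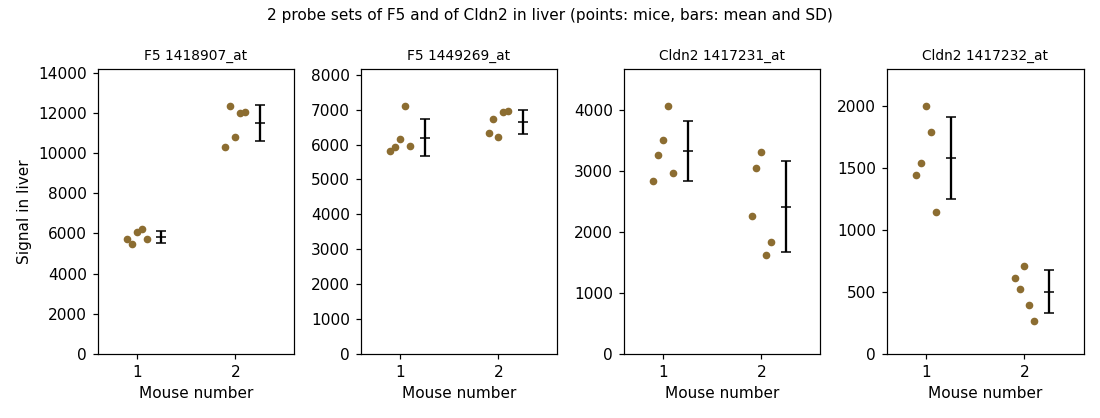
Liver signals of both probe sets of F5 and of Cldn2 in mice numbered 1 and 2; points are mice (5 per number), bars the mean and SD, and each axis starts at 0. The numbers separate at F5 1418907_at and at Cldn2 1417232_at, and overlap at the other probe set of each gene.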

How the data were processed

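Total RNA of brain, kidney and liver of 10 mice was hybridised to 30 arrays, 1 per sample. The authors deposited 1 linear intensity for each probe set, a MAS5 signal per the submitters' processing notes, version not given in the sources used here. In each column the mean after trimming 2% at each end was 500.0, and no detection calls were used. The 64 control probe sets were left out. Of the others, 34945 had 1 gene symbol, 932 several and 9160 none in the platform annotation, which can be old. Arrays of equal class and number were treated as the 3 tissues of 1 mouse.

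The models were fitted by limma 3.58.1 (R 4.3.3, eBayes with trend) on log2(signal + 16), over all 22519 probe sets at or above the filter, with Benjamini-Hochberg adjustment over all of them. Tissue fits had mouse as a block. Correlations used scipy 1.17.1 in Python 3.11.15, and adjustment was over the relations named. Each gene outside the members stood by its probe set with the highest brain mean, and in kidney and liver by the highest mean there. The genes named were all members, the 20 nearest and 5 farthest genes in brain, the 3 nearest per member in kidney and liver, and members of the lists. The exact members and lists, and the tests, were chosen with earlier results of these data known. List genes were named for their values after these were seen where they are not among the first 6 of a list.

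The alternatives were offsets of 1 and 64, 2 quantile normalisations, dropping the filter or setting it on the mean of all arrays, the number as a block, mouse not as a block, unordered classes, probe sets of the highest mean over all arrays, and each mouse left out. Tests of differences between tissues, 3 further pairs of tissues and the r within numbers in kidney and liver came after the data were seen. Models and correlations were tested on simulated data. The number of arrays limits the precision. Samples with the same number deviated together (r over 0.1) in 6 of 10 pairs in brain, 9 of 10 in kidney and 10 of 10 in liver. Only liver thus met the rule of every pair over 0.1, the labels name no factor shared by a number, and fits with the number as a block were an alternative. Promoter windows came from RefSeq (GRCm38.p6), and those of Ttr, Sostdc1, Folr1 and Clic6 are not shown.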

Additional observations from a re-analysis of the deposited data

Results flagged for a closer look

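Of 51 groups of 10 arrays (17 probe sets in 3 tissues), 6 held 1 array apart from the rest, with a gap to its neighbour, relative to the group's range, above Dixon's 95% critical value. Chance gives this in about 1 group of 20. In brain, mottled 1 had the lowest signal of Ttr at 1451580_a_at, 18.1, and pseudoagouti 1 the lowest of Cldn2 at 1417232_at, 76.3. In kidney, pseudoagouti 2 had the lowest signal of Ttr at 1451580_a_at, 1401.4, mottled 2 the highest of Ttr at 1455913_x_at, 10445.3, and heavily mottled 1 the highest of F5 at 1449269_at, 211.8. The kidney array of pseudoagouti 2 had a ratio of 3' to 5' Gapdh signal, a control for RNA quality, of 1.015. The other kidney arrays had 0.759 to 0.826. The part of this array in the kidney results was not tested. In liver, slightly mottled 1 had the lowest signal of Clic6 at 1434165_at, 50.0. The probe set of Cldn2 1417232_at also differed between tissues in its difference between mouse numbers (moderated F-test of limma, adjusted p = 0.014).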

How the results depend on the processing

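Counts of members called kept within 1.5 times of the values above in all but the following settings. Without the filter, 1 probe set (Otx2) was higher in brain than in kidney, and by the adjusted p alone 1 (Clic6), where leaving out single mice gave 0 to 1. With a filter on the overall mean, 1 probe set (Cldn2 1417231_at) differed between numbers in kidney, and leaving out single mice gave 0 to 6. With the probe sets of the highest mean over all arrays, 23 brain pairs were under the threshold with a median r of 0.755, and leaving out single mice gave 8 to 18 pairs. With the replicate number as a replicate block, 20 pairs were under the threshold with a median r of 0.72, and the coat slopes and the mouse effect stayed at 0 called; without mouse as a block, the tissue counts were the same.

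Signs turned in the following results, and the cause was not tested. The r of Cldn2 (1417232_at) and Otx2 was 0.0186 under quantile normalisation over all arrays, 0.0163 within each tissue, 0.74 with the other Cldn2 probe set, and -0.20 to 0.21 over left-out mice. The r of Ttr in brain and liver was -0.0021 with the number as a block and -0.15 to 0.14 over left-out mice, that of Ttr in kidney and liver 0.0034 under quantile normalisation within tissues and -0.24 to 0.23, and that of Kcnj13 in brain and kidney 0.0590 and 0.0616 under the quantile settings and -0.26 to 0.19. Over left-out mice, r was -0.49 to 0.67 for Ttr and Cldn2 and -0.0257 to 0.76 for Sostdc1 and Cldn2 in brain (0.40 with all mice). The log2 difference of brain minus kidney was -0.41 to 0.26 for Ttr and -0.11 to 0.12 for Kcnj13, and the brain coat slope of Clic6 at 1434165_at was -0.0850 to 0.0275. The MAS5 signals of Otx2, of Kl and Sostdc1 in liver and of Cldn2 in the low brains were near the bottom of the scale, which limits the precision of their differences.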
